A study of Mus musculus with 36 samples.

Results

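Zscan4c, Zscan4d, Zscan4f, Gm5662, Zfp352 and Tcstv3 are 6 of the genes that mark two-cell-like cells, and their read counts and metabolic label were followed in SLAM-seq libraries of mouse embryonic stem cells (mES cells). They were taken by symbol as 6 of the 22979 genes listed in any of the 6 deposited tables, and all 6 members stand in every table. The genes were chosen by their read counts after ZCCHC8 depletion, where they were higher, so every value of that contrast is given here as a description and without a test. The 36 libraries came from XX mES cells of a Cast x 129S hybrid strain with a TetOn promoter at the 129S Xist allele and Bgl stem loops in Xist exon 7, from which the feeder cells of routine culture were removed by preplating. Each of 3 cell lines, METTL3 (clone 12D), YTHDC1 (clone Y12H) and ZCCHC8 (clone Z12H), is 1 clone in which the named protein carries a degron tag and is degraded once dTAG-13 is added. METTL3 is the catalytic subunit of the m6A writer, YTHDC1 the nuclear m6A reader, and ZCCHC8 a scaffold subunit of NEXT, which hands nuclear RNA to the exosome. In every group, Ctrl included, doxycycline at 1 µg/ml was given for 20 h and then for 4 h together with 500 µM 4-thiouridine (4sU). The dTAG arm also received dTAG-13 from 2 h before doxycycline. A chase with 50 mM uridine of 0, 90 or 180 min followed, and each of the 18 groups had 2 replicates.

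In SLAM-seq, 4sU enters RNA made during the pulse and is read as C in place of T, so that T-to-C conversions mark new RNA. Two-cell-like cells are a rare and transient fraction of an mES cell culture that switches on genes of the two-cell embryo, among them the Zscan4 cluster, Zfp352, Tcstv genes and MERVL retroelements. The factor DUX drives much of this programme, and chromatin repressors such as the CAF-1 and non-canonical Polycomb complexes hold it down. In a bulk library, fewer two-cell-like cells and less RNA per such cell cannot be told apart.

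The 3 Zscan4 genes encode SCAN-domain zinc finger proteins known for telomere maintenance and lie in 1 cluster on chromosome 7, where the annotation (GENCODE M21, build mm10) places 9 genes named Zscan4 between 10794242 and 11614112. Zscan4c (ENSMUSG00000054272) lies at chr7:11005745-11010547 on the plus strand, Zscan4d (ENSMUSG00000090714) at chr7:11161374-11166159 on the minus strand and Zscan4f (ENSMUSG00000070828) at chr7:11397915-11402318 on the plus strand. Gm5662 (ENSMUSG00000079029), a predicted coding gene with many close copies, lies at chr12:88270640-88274500 on the minus strand. Zfp352 (ENSMUSG00000070902), a zinc finger gene first described from two-cell embryos, lies at chr4:90218820-90225702 on the plus strand. Tcstv3 (ENSMUSG00000095821), a small gene of a family found in two-cell embryos, lies at chr13:120316878-120318178 on the plus strand. All 6 are annotated as protein-coding, and none overlaps another annotated gene.

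The sequence before the start of the Zscan4 genes is nearly the same and is shown here for reference. Its part in their levels was not tested. The promoter windows are from RefSeq (build GRCm38.p6, the same coordinates as mm10), 250 bases before to 50 after the start, and were found for 4 of the 6 genes. Capitals mark TATAAA and GATTNAAT on either strand in the Zscan4 windows, and the unit ACAACACAC in the Zfp352 window. Zscan4c stands at chr7:11005495-11005794 on the plus strand, Zscan4d at chr7:11166099-11166398 on the minus strand, Zscan4f at chr7:11397665-11397964 on the plus strand and Zfp352 at chr4:90218570-90218869 on the plus strand.
Zscan4c: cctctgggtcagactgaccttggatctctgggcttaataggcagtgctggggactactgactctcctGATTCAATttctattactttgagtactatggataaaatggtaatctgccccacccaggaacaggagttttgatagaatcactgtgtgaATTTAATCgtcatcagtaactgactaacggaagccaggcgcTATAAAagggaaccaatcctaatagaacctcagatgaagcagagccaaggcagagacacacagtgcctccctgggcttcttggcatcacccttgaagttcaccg
Zscan4d: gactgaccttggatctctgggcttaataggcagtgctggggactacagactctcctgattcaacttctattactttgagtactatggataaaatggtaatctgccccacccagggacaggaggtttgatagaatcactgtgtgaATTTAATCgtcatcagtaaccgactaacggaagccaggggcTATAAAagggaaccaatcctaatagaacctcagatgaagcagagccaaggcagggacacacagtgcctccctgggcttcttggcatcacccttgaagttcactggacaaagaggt
Zscan4f: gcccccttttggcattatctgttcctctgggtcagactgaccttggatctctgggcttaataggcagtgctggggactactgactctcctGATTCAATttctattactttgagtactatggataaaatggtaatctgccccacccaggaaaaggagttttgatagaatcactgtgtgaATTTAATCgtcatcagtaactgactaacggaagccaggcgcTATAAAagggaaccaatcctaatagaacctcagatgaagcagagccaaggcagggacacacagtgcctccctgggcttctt
Zfp352: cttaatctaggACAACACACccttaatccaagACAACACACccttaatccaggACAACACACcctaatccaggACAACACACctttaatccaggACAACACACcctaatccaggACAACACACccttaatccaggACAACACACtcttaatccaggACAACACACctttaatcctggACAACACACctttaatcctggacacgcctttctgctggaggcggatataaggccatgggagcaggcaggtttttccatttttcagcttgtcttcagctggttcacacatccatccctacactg

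Over 277 aligned bases the Zscan4c and Zscan4f windows were 99.3% identical, Zscan4c and Zscan4d were 97.2% identical over 289 bases, and Zscan4d and Zscan4f 97.4% over 266. TATAAA was found once in each of the 3 Zscan4 windows, starting 54 bases before the annotated start in Zscan4c, 65 in Zscan4d and 31 in Zscan4f, and in 13.6% of all 32544 distinct promoter windows on either strand. GATTNAATC, the core that DUX is known to bind, was in none of the 4 windows and in 0.252% of all. Without its last base, GATTNAAT was found at 2 places in Zscan4c and in Zscan4f, on opposite strands, and at 1 in Zscan4d, against 1.95% of all windows. TGCACAC, a motif described for ZSCAN4 itself, was in none of the 4 and in 4.43% of all. The motifs were searched on both strands, and the letters GATTNAAT lie within GATTNAATC. The Zfp352 window held 9 copies of ACAACACAC in a tandem array, a unit that was present at least once in 0.273% of all windows, and no other window held as many copies.

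The likeness of the genes limits their counts, because only uniquely aligned reads were kept. Of all stretches of 81 bases, the read length, in the longest annotated transcript, 97.7% occurred in no other annotated gene for Zfp352 and 87.3% for Tcstv3. The share was 62.9% for Zscan4d, 35.1% for Gm5662, 23% for Zscan4c and 8.29% for Zscan4f. Zscan4f shared 74.3% of its stretches with Zscan4c, and Gm5662 shared 59.3% of its own with Gm2016. The libraries were sequenced as read pairs, and a read in a shared stretch may still be placed by its mate. These shares of single stretches do not take that into account. The counts of Zscan4d, Gm5662, Zscan4c and Zscan4f are therefore uncertain in level and in how they are split within their family.

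Libraries held 5274684 to 18652000 counted reads, with the ZCCHC8 line the shallowest at 5274684 to 10257631. The summed level of 7 pluripotency markers was 1978 to 3056 reads per 1000000 counted reads (CPM) in every library, and that of 7 feeder fibroblast markers 5.70 to 28.8 CPM, with Lum at 0 in 22 of 36 libraries. The mRNA of the targeted gene did not check the degradation, which acts on protein, and was 0.01 (Mettl3), 0.60 (Ythdc1) and 0.07 (Zcchc8) on the log2 scale over Ctrl in its own line.

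Without dTAG-13 the 6 genes were low in all lines and their medians had the same order of lines, ZCCHC8, METTL3 and YTHDC1 from high to low. Zscan4c had 3.29, 6.47, 5.39, 5.99, 5.28 and 8.27 CPM in the METTL3 line (replicates 1 and 2 at 0, 90 and 180 min in turn). In the YTHDC1 line the same libraries gave 1.12, 3.34, 2.85, 4.19, 2.79 and 4.79 CPM, and in the ZCCHC8 line 6.80, 7.71, 10.4, 9.87, 9.75 and 12.1 CPM. Neighbouring lines in that order overlapped for Zscan4c. Per length, Tcstv3 stood at 5.46 ± 2.09 and Zfp352 at 2.90 ± 0.417 CPM per kb of transcript (SD, n = 6) in the METTL3 Ctrl libraries. The other 4 genes were not ranked by level, since most or part of their sequence is not unique and reads from it may not have been counted.

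Zscan4f and Gm5662 were higher in the Ctrl libraries of the METTL3 line than in those of the YTHDC1 line. Zscan4f ranged from 6.89 to 15.2 CPM (median 12.5) in the METTL3 line and from 3.53 to 8.29 CPM (median 5.39) in the YTHDC1 line, and Gm5662 from 11.3 to 22.2 CPM (median 14.9) against 5.17 to 10.3 (median 8.62). The Gm5662 libraries of the 2 lines did not overlap, and those of Zscan4f overlapped. How many of all genes did not overlap was not counted. The log2 differences were 1.10 (SE 0.172, adjusted p = 0.0240) for Zscan4f and 0.93 (SE 0.171, adjusted p = 0.0400) for Gm5662 by edgeR's quasi-likelihood test, and 0.443% of 14215 genes were called higher in the METTL3 line. The other 4 genes were 0.75 to 1.22 higher on the log2 scale without passing the test (adjusted p 0.0596 to 0.149). Without the filter on low counts Gm5662 had an adjusted p of 0.0524 (edgeR). The sizes rested on the replicates: without replicate 1 the log2 difference was 0.54 for Gm5662, 0.58 for Zscan4d, 0.52 for Tcstv3, 0.49 for Zfp352 and 0.84 for Zscan4f, and without replicate 2 it was 1.32, 1.89, 1.35, 1.08 and 1.37 in the same order. Clone and line cannot be told apart, and 0 genes were called when the chase libraries of a replicate were summed to 2 against 2 (331 of 15619 at an unadjusted p under 0.05, edgeR).

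**Figure D1:**
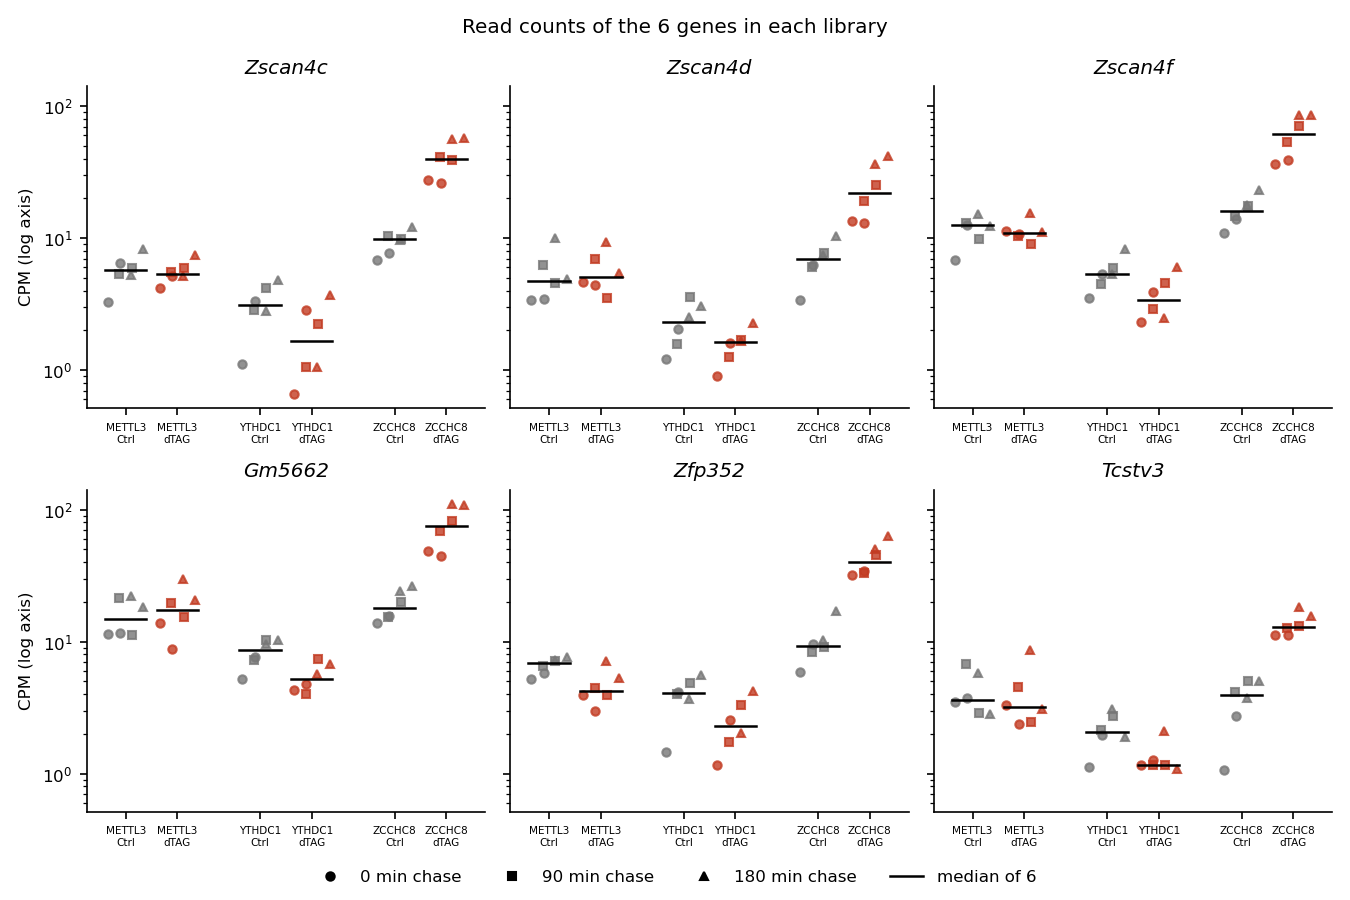
CPM (log axis) of the 6 genes in each of the 36 libraries, by line and arm, with 1 point per library shaped by chase time and a bar at the median of 6 libraries. The ZCCHC8 dTAG libraries lie above all ZCCHC8 Ctrl libraries for every gene, and the YTHDC1 dTAG medians lie below the YTHDC1 Ctrl medians.

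In the ZCCHC8 line, the contrast that chose the genes, all 6 were higher with dTAG-13, by 2.08- to 10.5-fold. This held for each gene in 6 of 6 pairs of libraries matched by replicate and chase time, which come from 2 batches. Zscan4c had 6.80, 7.71, 10.4, 9.87, 9.75 and 12.1 CPM in Ctrl and 27.6, 26.3, 41.1, 39.1, 56.3 and 57.4 CPM with dTAG-13. Gm5662 had 13.8, 15.7, 15.3, 20.1, 24.2 and 26.2 CPM in Ctrl and 48.9, 44.9, 69.4, 81.4, 110.1 and 108.1 CPM with dTAG-13. For both genes, and for the other 4, the lowest dTAG library lay above the highest Ctrl library. The share of all genes without such overlap was not counted, and nothing is read from it. Zfp352 ranged from 5.90 to 17.02 CPM (median 9.31) in Ctrl and from 32.1 to 63.5 CPM (median 40.0) with dTAG-13. Zscan4f ranged from 10.9 to 23.4 CPM (median 16.1) against 36.4 to 86.3 CPM (median 62.0), and Zscan4d from 3.40 to 10.4 CPM (median 6.89) against 13.1 to 41.7 CPM (median 22.1). Tcstv3 ranged from 1.07 to 5.05 CPM (median 3.95) against 11.2 to 18.2 CPM (median 12.9), and its lowest Ctrl library held 6 reads.

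The fitted log2 changes in the ZCCHC8 line follow, and nothing is read from their likeness, since this contrast chose the genes. They were 2.12 (SE 0.0894) for Zscan4c, 2.12 (SE 0.112) for Zfp352, 2.00 (SE 0.0772) for Gm5662, 1.92 (SE 0.0902) for Zscan4f, 1.91 (SE 0.146) for Tcstv3 and 1.83 (SE 0.128) for Zscan4d. Of 13962 genes fitted in this line, 4.38% were more than 2-fold higher and 0.408% more than 2-fold lower, and the median of all genes was -0.0034 on the log2 scale. Nothing is read from the place of the 6 genes in that background, since the contrast chose them. In the same libraries 5 primitive endoderm markers summed to 26.0 to 36.1 CPM with dTAG-13 against 20.9 to 27.0 CPM in Ctrl and 5 trophoblast markers to 7.20 to 9.55 against 6.19 to 7.07 CPM, and their part in these values was not tested.

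Both the labelled and the unlabelled RNA were higher with dTAG-13 at the end of the pulse in the ZCCHC8 line. Multiplying CPM by the new-to-total ratio, Zscan4c had 3.87 and 5.37 CPM of new RNA in the 2 Ctrl replicates and 23.05 and 18.86 CPM with dTAG-13, and its old RNA went from 2.93 and 2.34 to 4.51 and 7.44 CPM. Zfp352, whose RNA was mostly new, had 5.03 and 8.09 CPM of new RNA in Ctrl against 27.8 and 31.3 CPM, and 0.878 and 1.44 CPM of old RNA against 4.29 and 3.01 CPM. Over the 6 genes and 2 replicates the new RNA was 2.11- to 14.1-fold higher (median 4.07) and the old RNA 1.54- to 4.89-fold higher (median 2.66). The largest new-RNA fold belonged to Tcstv3 in replicate 1, where the Ctrl library held the 6 reads.

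After acute depletion of YTHDC1, all but Tcstv3 of the 6 genes were lower with dTAG-13 in 6 of 6 matched pairs, and Tcstv3 in 5. The pairs come from 2 batches and the genes share their libraries, so neither pairs nor genes are repeats of the depletion. The share of all genes lower in every pair was not counted. Gm5662 had 5.17, 7.70, 7.29, 10.3, 9.55 and 10.3 CPM in Ctrl and 4.30, 4.74, 4.04, 7.45, 5.70 and 6.78 CPM with dTAG-13. Every pair was lower by 0.554- to 0.832-fold, while the ranges of the arms overlapped. Gm5662 had a log2 change of -0.62 (SE 0.142, adjusted p = 0.0279 by edgeR) and was the only one of the 6 called lower, where 2.78% of 14199 genes were called lower and 2.48% higher. With the replicate, 1 batch of cells split over the wells, as a block, all 6 were called lower (adjusted p 0.000173 to 0.0146, edgeR), against 14.1% of all genes lower and 13.2% higher.

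Zscan4c in the YTHDC1 line had 1.12, 3.34, 2.85, 4.19, 2.79 and 4.79 CPM in Ctrl and 0.662, 2.88, 1.06, 2.24, 1.05 and 3.72 CPM with dTAG-13, the lowest being 8 reads. Within each arm replicate 2 stood above replicate 1 at all 3 chase times, so the arms overlapped although each pair was lower. The log2 change was -0.72 (SE 0.383, adjusted p = 0.351) without the block and -0.77 (SE 0.189, adjusted p = 0.00455) with it, by edgeR. It was -0.49 (adjusted p = 0.0602) without replicate 1 and -1.32 (adjusted p = 0.0136) without replicate 2, by edgeR. Zfp352 had a log2 change of -0.69 (SE 0.271, adjusted p = 0.191), Tcstv3 of -0.72 (SE 0.235, adjusted p = 0.111), Zscan4f of -0.59 (SE 0.216, adjusted p = 0.153) and Zscan4d of -0.59 (SE 0.218, adjusted p = 0.165). Tcstv3 held the 1 pair that was not lower, at 1.03-fold. Summed to 2 against 2 libraries, edgeR called 0 genes in this line (698 of 15512 at an unadjusted p under 0.05), so that these calls rest on treating the 3 chase libraries of a replicate as separate samples.

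After depletion of METTL3 only Zfp352 passed the test among the 6 genes. Zfp352 had 5.19, 5.83, 6.51, 7.17, 7.30 and 7.65 CPM in Ctrl and 3.95, 2.98, 4.45, 3.97, 7.15 and 5.32 CPM with dTAG-13. It was lower in 6 of 6 pairs, nearly level in 1 of them at 0.979-fold, and its log2 change was -0.55 (SE 0.163, adjusted p = 0.0347 by edgeR). In this line 8.80% of 14413 genes were called lower and 11.3% higher. Without replicate 2 the log2 change of Zfp352 was -0.31 (adjusted p = 0.229), and without replicate 1 it was -0.78 (adjusted p = 9.27e-05).

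The other 5 genes had log2 changes of -0.13 to 0.12 in the METTL3 line, with SE of 0.169 to 0.366 and adjusted p from 0.762 to 0.886. Zscan4c ranged from 3.29 to 8.27 CPM (median 5.69) in Ctrl and from 4.20 to 7.47 CPM (median 5.36) with dTAG-13, and Zscan4f from 6.89 to 15.2 CPM (median 12.5) and from 8.99 to 15.6 CPM (median 10.9). The arms lay over each other for both. With the replicate as a block Zfp352 stayed the only one of the 6 called (adjusted p = 0.00297, edgeR), where 24.1% of all genes were called lower and 24.4% higher. Some markers of other lineages were higher in the METTL3 dTAG libraries. The summed level of 5 trophoblast markers was 9.18 to 30.9 CPM against 3.34 to 8.75 CPM in Ctrl, most of it Eomes. That of 5 primitive endoderm markers was 18.2 to 38.6 against 12.2 to 25.6 CPM, carried by Dab2 with a mean of 21.9 against 9.38 CPM. Of these 5, Dab2 and Gata6 were called higher by edgeR, while Gata4 (-0.12), Sox17 (0.01) and Pdgfra (-0.37 on the log2 scale) were not called. Cdx2 was at 0 in 10 of 36 libraries, and the part of these markers in the Zfp352 value was not tested.

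**Figure D2:**
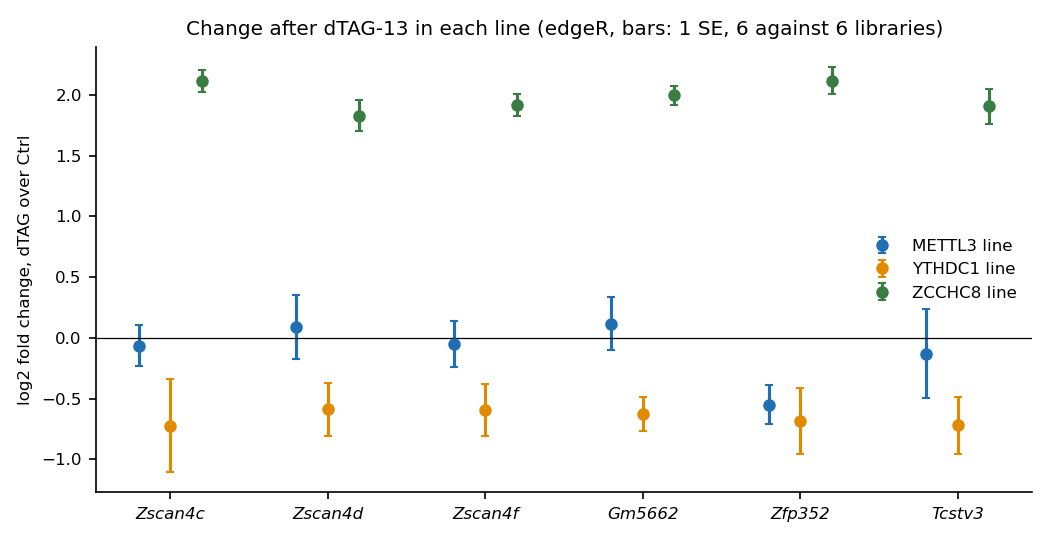
Log2 fold change, dTAG over Ctrl, of the 6 genes in each line from edgeR, with bars of 1 SE and 6 against 6 libraries. The ZCCHC8 values lie between 1.83 and 2.12, the YTHDC1 values between -0.72 and -0.59, and the METTL3 values on both sides of 0 except for Zfp352 at -0.55.

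The difference between the METTL3 and YTHDC1 responses was tested as an interaction. None of the 6 passed (edgeR), with Gm5662 nearest at a difference of 0.75 on the log2 scale (SE 0.270, adjusted p = 0.0672), while 15.6% of 14735 genes passed in either direction. The unadjusted p of Gm5662 was 0.0118, and it was the 1 of the 6 under 0.05. With the replicate within each line as a block, 4 of the 6 passed, Gm5662 (adjusted p = 0.00073), Zscan4c (0.0132), Zscan4d (0.0247) and Zscan4f (0.0333), where 39.2% of all genes did. Zfp352, lower in both lines, had a difference of 0.15 (SE 0.321, adjusted p = 0.835).

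Other genes of the two-cell-like programme were compared from a list of 45, of which 41 were listed in the tables. Among those that were not the 6 themselves, 31 passed the filter on low counts in the ZCCHC8 line, and 30 of these were more than 2-fold higher and 0 more than 2-fold lower. The filter could be passed through the dTAG arm alone, and 5 of the 31, Gm13078, Gm4027, Pramef6, Tdpoz3 and Zscan4e, were fitted in no other line. Of the 26 that were also fitted in the METTL3 line, 25 were more than 2-fold higher after ZCCHC8 depletion, with a median log2 change of 1.79. Tdpoz4 stood at 2.78 (SE 0.234) and Tcstv1, a relative of Tcstv3, at 2.503 (SE 0.264). These counts are a description, since the contrast is the one that chose the 6 genes. Arg2, an arginase gene, was the one below 2-fold with 0.96 (SE 0.166). Many of these genes are close copies of one another or of the 6, so that they are not separate measurements.

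The YTHDC1 and METTL3 lines gave small changes of the same list. In the YTHDC1 line 3 of 17 fitted genes were called lower and 0 higher by edgeR, where 2.78% of all genes were lower, with a median log2 change of -0.57 and negative values for 16. The 3 were BB287469 (-0.84, SE 0.204, adjusted p = 0.0355), Gm8300 (-0.76, SE 0.179, adjusted p = 0.0309) and Gm21761 (-0.59, SE 0.139, adjusted p = 0.0325), and with the replicate as a block 10 of the 17 were called lower, against 14.1% of all genes. In the METTL3 line 3 of 26 were called lower and 1 higher, with a median of -0.22, beside 8.80% and 11.3% of all genes, and nothing is read about the list from these counts. Tdpoz4 fell by 0.93 (SE 0.242, adjusted p = 0.0201), Gm12794 by 0.66 (SE 0.191, adjusted p = 0.0306) and Tmem92 by 0.61 (SE 0.175, adjusted p = 0.0317), while B020004J07Rik rose by 0.96 (SE 0.252, adjusted p = 0.0208). With the replicate block the METTL3 counts were 6 lower and 2 higher, against 24.1% and 24.4% of all genes.

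**Figure D3:**
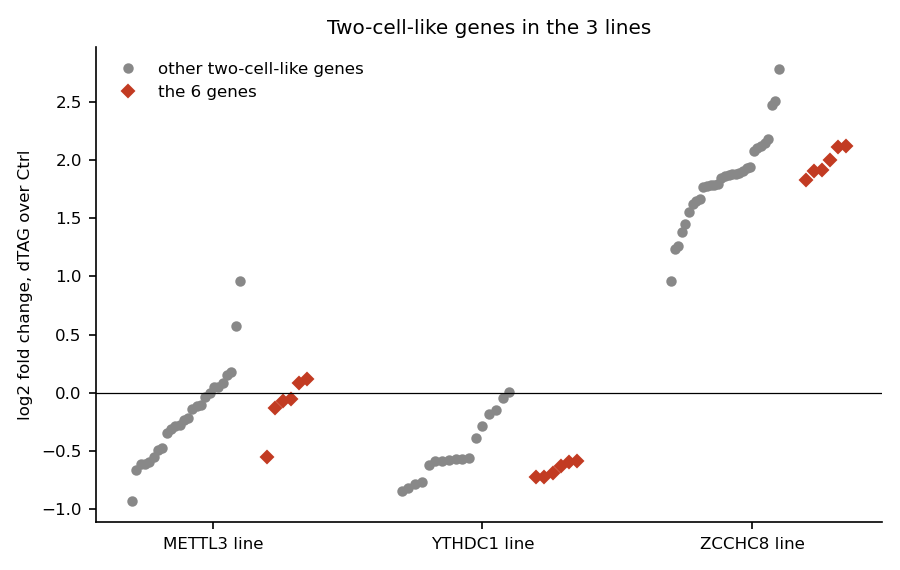
Log2 fold change, dTAG over Ctrl, of the fitted two-cell-like genes in each line, ordered by value, with the 6 genes as red diamonds and the others as grey points. In the ZCCHC8 line all points lie above 0.95, in the YTHDC1 line 16 of the 17 grey points lie below 0, and in the METTL3 line they spread from -0.93 to 0.96.

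Of 7 listed activators of the state, 5 stood in the tables and 4 could be fitted. Without the replicate block these 4 changed by less than 2-fold in each line. Nelfa, a subunit of the negative elongation factor, was 0.54 (SE 0.0590) higher and Dppa2, a chromatin protein that primes the programme, 0.53 (SE 0.0614) higher on the log2 scale in the ZCCHC8 dTAG libraries, where Dppa4 was at 0.18 (SE 0.0553) and Trp53 at 0.05 (SE 0.0605). None of the 4 was called in the METTL3 or YTHDC1 line by edgeR, with values of -0.93 to 0.11 in the METTL3 line and -0.07 to 0.04 in the YTHDC1 line. With the replicate as a block, Trp53 (-1.04, adjusted p = 0.0356) and Nelfa (-0.26, adjusted p = 0.0179) were called lower in the METTL3 line by edgeR, and 0 of the 4 in the YTHDC1 line. Of all genes, 24.1% were called lower in the METTL3 line with the block.

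Of 21 repressors of the state, 0 were more than 2-fold changed in any line. In the ZCCHC8 line, given without a test, 16 of the 21 had positive values, with a median of 0.08 on the log2 scale and a range from -0.29 for the CAF-1 subunit Chaf1b to 0.38 for the RNA-binding protein gene Lin28a. In the METTL3 line 3 were called higher, the H3K9 methyltransferase Setdb1 (0.62, adjusted p = 0.00301), the Polycomb component E2f6 (0.46, adjusted p = 0.0371) and its partner Rybp (0.44, adjusted p = 0.0254), and the deacetylase Hdac1 was lower (-0.55, adjusted p = 0.00283), against 11.3% of all genes higher and 8.80% lower. In the YTHDC1 line Ehmt2, another H3K9 methyltransferase, was the only one called (-0.58, SE 0.133, adjusted p = 0.0279, edgeR). There 2.78% of all genes were called lower. With the replicate block edgeR called 6 repressors higher and 2 lower in the METTL3 line, against 24.4% and 24.1% of all genes. In the YTHDC1 line it called 1 higher and 5 lower, against 13.2% and 14.1% of all genes. Nothing is read about the list from these counts.

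Most of the 6 genes also varied together where no protein was depleted, Tcstv3 less than the rest. Over the 18 Ctrl libraries the Pearson correlation of their log2 CPM was 0.532 to 0.960 (median 0.884) between pairs, lowest for Tcstv3 with Zscan4c and highest for Gm5662 with Zscan4d. Among 13680 genes with a mean of at least 1 CPM, the 5 most like Zscan4c over these libraries were Zfp352 (0.940), Gm2016 (0.936), Zscan4f (0.934), Gm5039 (0.930) and Gm6803 (0.927), on log2(CPM + 1). Gm5662 (0.846) was the 35th, Zscan4d (0.830) the 52nd and Tcstv3 (0.514) only at place 2279. Over all 36 libraries, which include the ZCCHC8 dTAG libraries that chose the genes, they were Gm5039 (0.980), Zscan4f (0.979), Zfp352 (0.972), Usp17lb (0.971) and Gm2016 (0.970). The libraries share lines, batches and chase times, and Zscan4f shares most of its sequence with Zscan4c.

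The new-to-total ratio, the share of reads that GRAND-SLAM assigns to RNA made during the pulse, was high for Zfp352 at the end of the pulse. In the 0 min Ctrl libraries its 2 replicates gave 0.852 and 0.797 for METTL3, 0.829 and 0.843 for YTHDC1, and 0.851 and 0.849 for ZCCHC8. With dTAG-13 it was 0.885 and 0.838, 0.974 and 0.733, and 0.866 and 0.912 in the same lines. All 12 values lay above the median of all genes, which was 0.517 to 0.653 over these libraries. The medians over the 12 libraries were 0.850 for Zfp352, 0.764 for Gm5662, 0.717 for Tcstv3, 0.676 for Zscan4c, 0.662 for Zscan4d and 0.637 for Zscan4f, against 0.609 for all genes. The posterior bounds are wide at these depths, at 0.733 to 0.925 (5% to 95%) for Zfp352 on 52 reads in the METTL3 Ctrl library of replicate 1 and at 0.866 to 0.945 on 218 reads in the ZCCHC8 dTAG library of replicate 2.

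The difference of the ratio between the arms, taken over all chase times, was small beside its spread for most genes. Averaged over 6 pairs in the ZCCHC8 line, dTAG minus Ctrl ran from -8.3e-05 ± 0.0518 (SD) for Gm5662 to 0.0856 ± 0.107 for Zscan4f. It was 0.0192 ± 0.0343 for Zfp352 and 0.0607 ± 0.149 for Zscan4c, with all genes at -0.0233 ± 0.0373. Zscan4f was higher in 5 of 6 pairs, Gm5662 in 3 and all genes in 2. These pairs mix chase times. At 0 min each of the 6 genes was higher with dTAG-13 in both replicates, Zscan4f by 0.176 and 0.163. At 0 min the median of all genes went from 0.565 to 0.584 in replicate 1 and from 0.618 to 0.570 in replicate 2. At 180 min each of the 6 was lower in replicate 1, and all but Gm5662 were higher in replicate 2. The median of all genes moved likewise at 180 min. It went from 0.567 to 0.511 in replicate 1 and from 0.471 to 0.495 in replicate 2. In the YTHDC1 line the 6 genes lay between -0.0698 and 0.0518, each within its spread over pairs of 0.131 to 0.227. In the METTL3 line Gm5662 was lower in 6 of 6 pairs, by a mean of -0.113 ± 0.0555, and Zscan4d in 5 of 6, with a mean of -0.108 ± 0.0796. The median of all genes was also lower in 6 of 6 METTL3 pairs, at -0.0817 ± 0.0397.

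**Figure D4:**
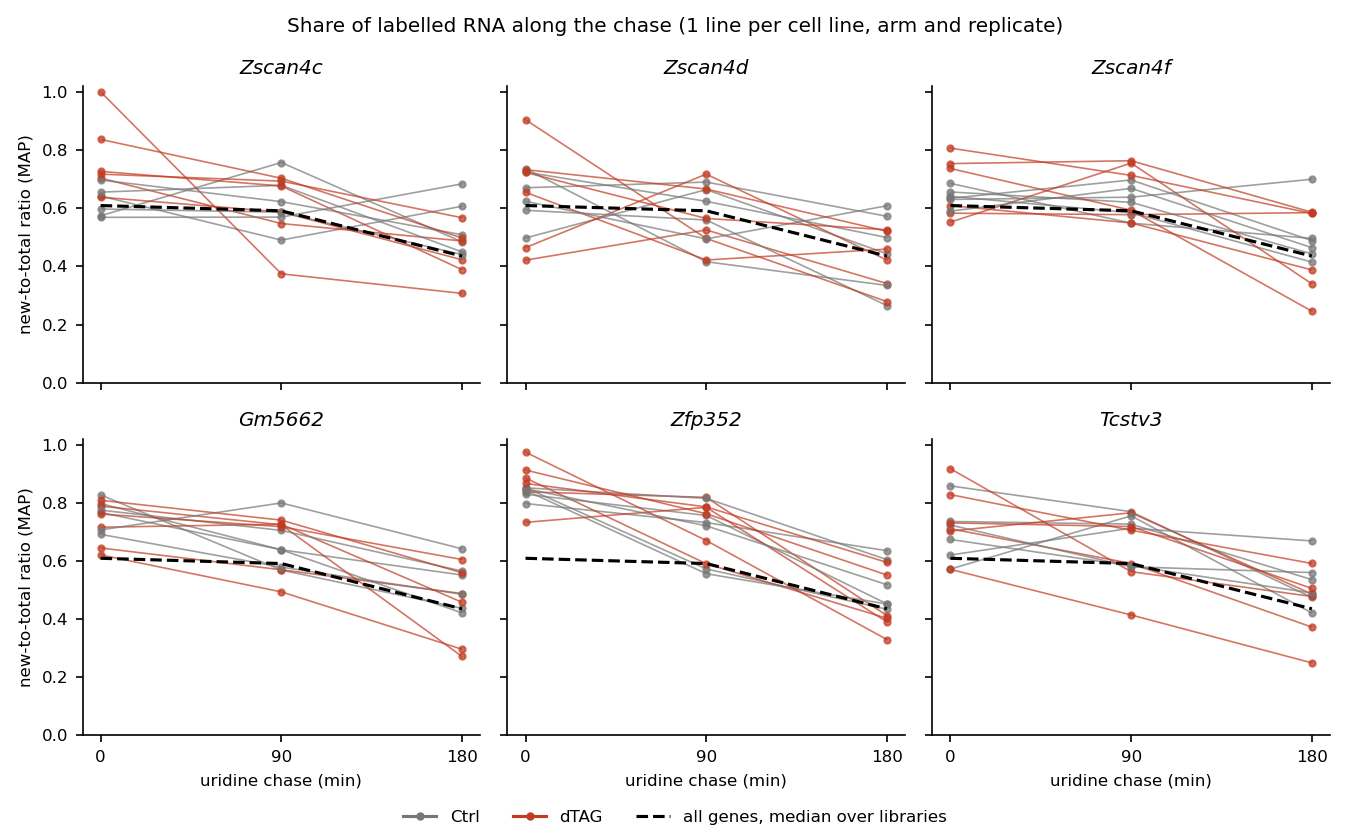
New-to-total ratio (MAP, 0 to 1) of each gene over 0, 90 and 180 min of uridine chase, with 1 line for each cell line, arm and replicate (Ctrl grey, dTAG red) and the median of all genes dashed. Zfp352 starts above the dashed line in all 12 series.

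Zfp352 had the lowest median share of its ratio left at the end of the chase. The ratio at 180 min as a share of that at 0 min was 33.9% to 79.7% for Zfp352 (median 54.1% over 12 series of line, arm and replicate), and the medians were 69.7% for Gm5662, 70.3% for Tcstv3, 71.1% for Zscan4c, 71.9% for Zscan4d and 72.3% for Zscan4f. The median of all genes left 69.1%. The spread was wide, up to 120% for Zscan4c, and its highest YTHDC1 ratio of 1 rested on 8 reads. Measured by the T-to-C rate, conversions over covered T positions, less was left for each gene, with medians of 39.3% for Zfp352, 39.6% for Gm5662, 43.5% for Zscan4f, 45.8% for Zscan4d, 46.4% for Zscan4c and 47.6% for Tcstv3, against 51.7% for all genes. On that scale Zfp352 and Gm5662 were nearly level, so the place of Zfp352 apart from the rest holds for the ratio alone.

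Label loss was compared between the arms as a slope over the chase, and none of the 6 genes passed the test. In the METTL3 line all 6 reached the minimum of 20 reads and of a 0.02 ratio throughout, and the difference in slope was -0.14 to 0.03 log2 units per hour (SE 0.0907 to 0.131, limma adjusted p 0.922 to 0.996), where 0.132% of 11366 genes were called. In the YTHDC1 line Gm5662 (-0.13, SE 0.116) and Zscan4f (-0.18, SE 0.129) could be fitted, both with an adjusted p of 1.0 (limma), and 0% of 11592 genes were called, with 292 at an unadjusted p under 0.05. In the ZCCHC8 line, given without a test, Zfp352 was at -0.01 (SE 0.0607), Gm5662 at -0.04 (SE 0.0618), Zscan4f at -0.11 (SE 0.0775) and Zscan4c at -0.15 (SE 0.0737).

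The read counts themselves were higher late in the chase than at its start in most series of both arms. In the METTL3 Ctrl libraries Gm5662 went from 11.4 to 21.5 and 22.2 CPM over 0, 90 and 180 min in replicate 1, and from 11.7 to 11.3 and 18.2 CPM in replicate 2. At 180 min the level was above that at 0 min in 12 of 12 series for Gm5662, Zfp352, Zscan4c and Zscan4d, in 11 for Zscan4f and in 9 for Tcstv3. The median folds were 1.91 for Zscan4d, 1.80 for Gm5662, 1.75 for Zfp352, 1.64 for Tcstv3, 1.55 for Zscan4f and 1.50 for Zscan4c. Over 10587 genes with at least 20 reads in every library the median fold was 0.945 to 1.07 by series. Of these genes, 27.3% were higher in 12 of 12 series, and 16.2% had a median fold of at least 1.50. Gm5662 and Zscan4f are among them, while Zfp352, Zscan4c, Zscan4d and Tcstv3 fell below 20 reads in some libraries. For the latter genes the background is a better-covered set to which they do not belong.

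In that background, which holds 2 of the 6 genes, the amount of label at 0 min moved with the fold over the chase. Whether it did so among the 6 was not tested. Counted conversions were 0.684 to 3.00 per read for the 6 genes at 0 min, and the median of all genes was 1.05 to 1.62. Across the 10587 genes, which share their libraries and are not independent replicates, conversions per read at 0 min and the log2 fold over the chase had a Pearson correlation of 0.720. The alignment kept only reads under a limit of mismatches, conversions included, and its part in the higher counts was not tested.

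**Figure D5:**
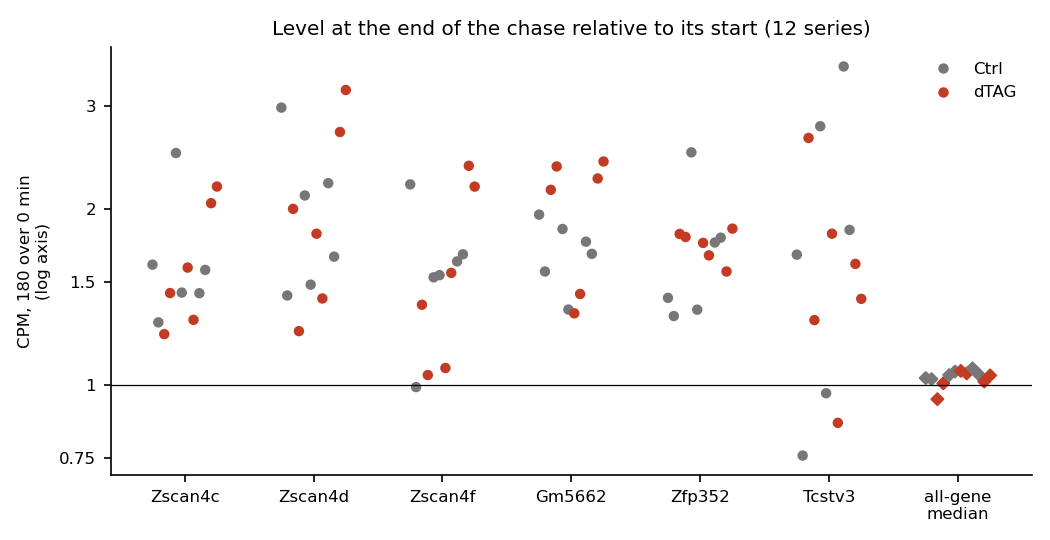
CPM at 180 min over 0 min of chase (log axis) for each gene in the 12 series of line, arm and replicate (Ctrl grey, dTAG red), with the median of all genes at the right. For Gm5662, Zfp352, Zscan4c and Zscan4d all 12 points lie above 1. The medians of all genes, taken over those with at least 20 reads in every library, lie between 0.945 and 1.07.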

How the data were processed

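SLAM-seq of total RNA was analysed in 36 libraries, in 18 groups of 2 replicates taken from the sample labels. The authors removed ribosomal reads, aligned the rest to mm10 with STAR (2.5.2b, per the submitters' processing notes), kept unique end-to-end alignments under a mismatch limit, and ran GRAND-SLAM on the 6 libraries of a line and replicate. The GRAND-SLAM version, the annotation release and the use of strand are not given in the sources used here. The deposited read counts are raw whole numbers per gene. The deposited new-to-total ratios are a fraction from 0 to 1, as the maximum (MAP) and mean of the posterior with its 5% and 95% bounds. The deposited conversions and coverage are a signal summed over T positions. Another 180 columns of the libraries were not used.

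Counts were fitted for all genes with edgeR 4.0.16 (TMM, filterByExpr, robust quasi-likelihood test, chase time as a factor, Benjamini-Hochberg, threshold 0.05). The alternative tools and settings were DESeq2 1.42.0, no filter, a replicate block, leaving out each replicate and summing the chase libraries. Label loss was fitted with limma 3.58.1 on the log2 ratio over hours of chase. Fits were tested on simulated data, drawn independently for each library and without a batch effect. That simulation cannot show how the p-values hold for chase libraries that share a batch. CPM are reads per 1000000 counted reads. Library totals, 5274684 to 18652000, limit the precision, and posterior bounds cover counting error only.

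Per the study's methods, 1 batch of cells supplied all wells of a replicate, so the replicate number pairs the arms of a line, and the replicate differences of the arms correlated at 0.293 to 0.868. The 3 chase libraries of a replicate share that batch, and p-values then measure the spread between libraries of 2 batches. Replicates differed by more than sampling noise (chi-square per degree of freedom 2.45 to 77.9). The 6 genes, gene lists and motifs were chosen with earlier results of these data known. Named beside the 6 were list genes that passed the test in the METTL3 or YTHDC1 line or 2-fold in the ZCCHC8 line, up to 10 a line by size, and the 5 genes most like Zscan4c. Arg2, the activators' values and the feeder, Eomes and Cdx2 values were named after they were seen. Primitive endoderm and trophoblast markers served to check other cell types.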

Additional observations from a re-analysis of the deposited data

Results flagged for a closer look

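Of 36 sets of 6 libraries (gene, line and arm), 3 held a library whose gap to the next exceeded Dixon's 95% limit. Chance flags about 1 in 20 sets of like values, but these sets mix chase times and batches, so that rate does not hold here. All 3 flagged libraries were the 180 min dTAG library of replicate 1, a time at which most series of these genes were higher. In the METTL3 line Tcstv3 reached 8.70 CPM there against 2.40 to 4.56 CPM in the other 5 libraries, and Zscan4f 15.6 against 8.99 to 11.4 CPM. In the YTHDC1 line Tcstv3 reached 2.10 CPM against 1.09 to 1.27 CPM.

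For 5 genes every matched pair was higher with dTAG-13 in the ZCCHC8 line and every pair lower in the YTHDC1 line, and the log2 changes differed by 2.84 for Zscan4c, 2.41 for Zscan4d, 2.51 for Zscan4f, 2.62 for Gm5662 and 2.80 for Zfp352. Zfp352 was lower in every pair of the METTL3 line as well, 2.67 below its ZCCHC8 value. These differences were not tested, because the ZCCHC8 contrast chose the genes. The share of all genes with pairs opposed in this way was not counted, so nothing is read from the number of genes. The pairs of a line come from 2 batches.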

How the results depend on the processing

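The direction of the 6 genes in the YTHDC1 line was the same under every alternative. It was also the same in the ZCCHC8 line, where 6 of 6 stayed past 2-fold. The ZCCHC8 values are a description, since that contrast chose the genes. Counts of calls moved with how the replicate was treated. With the replicate block, edgeR called 6994 genes for METTL3, 3876 for YTHDC1 (6 of the 6), 5780 for the difference of these responses (4 of the 6), 1207 between the Ctrl libraries of these lines (6 of the 6) and 33 for METTL3 label loss. Replicate numbers do not pair cells across lines, so the block between Ctrl libraries holds only a shared number. The block changed no other call of the 6 genes. With chase libraries summed, edgeR called 0 genes for METTL3 (1434 at an unadjusted p under 0.05), 0 for YTHDC1, 0 for their difference (1441) and 0 between Ctrl libraries, and so 0 of the 6 genes, while 1041 genes passed 2-fold in the ZCCHC8 line. DESeq2 called 1156 genes in the YTHDC1 line and 341 between Ctrl libraries (6 of the 6). Without the filter, 2716 genes passed 2-fold in the ZCCHC8 line, and 1 of the 6 was called between Ctrl libraries. With at least 100 reads, 32 genes were called for METTL3 label loss.

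Leaving out each replicate in turn leaves 1 batch, so the spread between batches is no longer in the test. It gave 5716 to 7473 genes for METTL3 (0 to 1 of the 6), 1335 to 3555 for YTHDC1 (4 to 5), 3298 to 6147 for the difference (1 to 3), 83 to 1837 between Ctrl libraries (4 to 5) and 6 to 58 for METTL3 label loss. The median log2 change of the 6 in the METTL3 line was -0.20 to 0.11, for Zscan4c -0.18 to 0.10 and for Zscan4f -0.21 to 0.12, and the difference of responses for Zfp352 was -0.22 to 0.56. Slope differences of METTL3 label loss were -0.046 to 0.030 for Zscan4d, -0.062 to 0.13 for Zscan4f, -0.049 to 0.024 for Gm5662 and -0.16 to 0.11 for Tcstv3, and in the YTHDC1 line -0.34 to 0.092 for Gm5662. By T-to-C rate the median share of label left was 44.6%. The cause of these differences was not tested. The lowest counts, 6 reads for Tcstv3 and 8 for Zscan4c, limit single ratios.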
